A study of Mus musculus with 3 samples.

Results

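The expression of 10 genes of the JAK-STAT pathway was examined in Ly6G+ bone marrow (BM) myeloid cells of mice given AAV-Ctrl or AAV-IL-27. The genes were 3 Janus kinases (Jak1, Jak2, Tyk2), the transcription factor Stat3, 4 feedback inhibitors of the SOCS family (Socs1, Socs2, Socs3, Cish) and the cytokine-inducible genes Pim1 and Bcl3. They were taken by gene symbol, and all 10 were found among the 16072 named genes of the deposited table. C57BL/6 mice, which the study used at 6 to 10 weeks of age, all carried B16.F10 melanoma cells, injected under the skin 1 week before the vector went into the muscle. The AAV-IL-27 vector (AAV stands for adeno-associated virus) carries the linked subunits of mouse interleukin-27 behind the broadly active CAG promoter, so the mouse itself makes the cytokine, and AAV-Ctrl is the empty vector. Cells were taken 3 weeks after the vector, and 2 AAV-Ctrl libraries and 1 AAV-IL-27 library were analysed. The labels speak of 4 mice but list 3, of which 2 had AAV-Ctrl and 1 had AAV-IL-27, so each library is taken to be 1 mouse.

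IL-27 belongs to the IL-6 and IL-12 cytokine family and is read by a receptor of Il27ra and the shared chain Il6st. Neither chain is an enzyme. Janus kinases bound to the receptor tails phosphorylate the chains and then STAT proteins, which pair, enter the nucleus and bind DNA. Among the genes they switch on are SOCS genes, whose products bind the kinases or the receptors and close the loop. In neutrophils the same kinases serve the receptor for G-CSF, the main growth factor of granulocytes, and SOCS3 is its known brake.

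Of the 10 genes, Socs1 and Socs3 had the largest differences from the AAV-Ctrl libraries, in opposite directions. Socs1 was at 202% of the AAV-Ctrl mean in the AAV-IL-27 library and Socs3 at 45.2%. The kinases, Stat3, Socs2 and Cish lay between 91.9% and 115% of the AAV-Ctrl mean, and Pim1 and Bcl3 were at 80.3% and 77.8%. With 1 AAV-IL-27 library analysed there is no replicate error for that group, so no test was run, and each value is read against the gap between AAV-Ctrl 1 and AAV-Ctrl 2. The difference to the nearer AAV-Ctrl library was larger than that gap in Socs1, Socs3, Pim1, Tyk2, Jak1 and Socs2, of which Socs2 was under 1 FPKM, and was not larger in Bcl3, Cish, Jak2 and Stat3. The gap of a single gene can be small by luck, so gaps of genes with an AAV-Ctrl mean within 2-fold were also used. By the difference to the nearer library, only Socs1, Socs3 and Pim1 exceeded the 95th percentile of those gaps. By the difference to the AAV-Ctrl mean, Bcl3 exceeded it too. Tyk2, Jak1 and Socs2 did not by either. Fewer cells of a type and less RNA per cell cannot be told apart in such bulk samples.

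Promoter sequences are shown for Socs1 and Socs3, the genes that differed most, and for Cish, which was near its AAV-Ctrl level and whose start holds the STAT motif more than once. They are RefSeq sequences of GRCm38.p6 (the labels name mm10, the same build), read 5′ to 3′ on the gene's strand from 250 bases before the annotated start to 20 bases after it. Capitals mark TTCNNNGAA in Socs3 and Cish, the palindrome to which STAT pairs bind, and GAAANNGAAA in Socs1, the core of the element read by interferon regulatory factors. The second motif was chosen after the sequences were seen. The windows lie at chr16:10785517-10785786 (minus strand) for Socs1, chr11:117969347-117969616 (minus strand) for Socs3 and chr9:107296409-107296678 (plus strand) for Cish. For Socs3 and Cish the RefSeq start lies inside the GENCODE gene span given further on, which reaches further upstream.
Socs1: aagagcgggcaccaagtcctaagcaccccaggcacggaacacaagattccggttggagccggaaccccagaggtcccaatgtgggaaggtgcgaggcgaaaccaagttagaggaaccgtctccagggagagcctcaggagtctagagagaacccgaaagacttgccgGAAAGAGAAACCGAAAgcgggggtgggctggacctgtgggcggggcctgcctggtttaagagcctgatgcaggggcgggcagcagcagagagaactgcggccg
Socs3: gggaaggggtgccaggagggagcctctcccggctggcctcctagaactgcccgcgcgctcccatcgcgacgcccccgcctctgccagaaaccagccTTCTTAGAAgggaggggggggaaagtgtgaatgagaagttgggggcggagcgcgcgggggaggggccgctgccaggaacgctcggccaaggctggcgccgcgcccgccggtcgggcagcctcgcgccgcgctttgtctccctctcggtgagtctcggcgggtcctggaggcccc
Cish: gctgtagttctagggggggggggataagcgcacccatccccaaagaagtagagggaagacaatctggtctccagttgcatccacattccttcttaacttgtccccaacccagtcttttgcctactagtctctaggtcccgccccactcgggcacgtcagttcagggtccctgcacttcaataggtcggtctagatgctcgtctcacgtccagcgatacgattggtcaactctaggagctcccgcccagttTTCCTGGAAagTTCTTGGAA

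Windows of 300 bases (250 before and 50 after the start) were given for 9 of the 10 genes, all but Socs2. The palindrome TTCNNNGAA, which reads the same on both strands, was in 2 of these 9 genes. In Socs3 it began 154 bases before the start, as TTCTTAGAA. In Cish it occurred as TTCCTGGAA over the first 9 bases after the start and again as TTCTTGGAA from base 12 to base 20. Of 32851 RefSeq windows, 8.30% held this motif and 0.457% held it more than once. GAAANNGAAA, searched on both strands, was in Socs1 only among the 9 genes, as GAAAGAGAAA from base 83 before the start and GAAACCGAAA from base 77, so that the matches overlap. It was in 3.44% of all windows, and 0.225% held it more than once. A match describes letters in the window, and no binding was measured here.

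The Janus kinases were near their AAV-Ctrl level. Jak1 (NCBI Gene 16451, chromosome 4 from 101152367 to 101265282, minus strand), the kinase used by the Il6st chain and by interferon receptors, was at 122.21 and 121.50 FPKM in AAV-Ctrl and 131.85 FPKM in AAV-IL-27. FPKM is the number of fragments scaled to transcript length and to the total of mapped fragments. The difference in log2(FPKM + 1) between AAV-IL-27 and the AAV-Ctrl mean, a scale that understates changes of low genes and is called the log2 difference from here on, was 0.11 for Jak1. Its AAV-Ctrl libraries differed by 0.0083 on that scale and AAV-IL-27 lay above both, at 108% of their mean. Among genes of similar level the gap between AAV-Ctrl libraries had a 95th percentile of 0.225, so the difference of Jak1 was within that spread.

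Jak2 (NCBI Gene 16452, chromosome 19 from 29251828 to 29313080, plus strand), a kinase that serves the receptors for erythropoietin, thrombopoietin and GM-CSF and also the Il6st chain, was at 25.72 and 23.18 FPKM in AAV-Ctrl and 25.67 FPKM in AAV-IL-27. The AAV-IL-27 value fell inside the AAV-Ctrl range. Tyk2 (NCBI Gene 54721, chromosome 9 from 21104068 to 21131243, minus strand), the partner of Jak1 and Jak2 at type I interferon and IL-12 receptors, was at 10.64 and 11.43 FPKM in AAV-Ctrl and 12.73 FPKM in AAV-IL-27. Its log2 difference of 0.19 exceeded the 0.095 between the AAV-Ctrl libraries, but not the 95th percentile of 0.301 among genes of similar level. Stat3 (NCBI Gene 20848, chromosome 11 from 100885098 to 100939540, minus strand), which carries the signal of IL-6, IL-27 and G-CSF to DNA, was at 82.62 and 76.56 FPKM in AAV-Ctrl and 76.87 FPKM in AAV-IL-27, again inside the AAV-Ctrl range. Stat3 overlaps Stat5a on the other strand, Tyk2 overlaps 1700084C06Rik there, and Jak1 overlaps Raver2, Gm24468 and Gm12785, with 1 of these on its own strand. The libraries were strand-marked, but whether the counting used strand was not given in the sources used here.

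**Figure D1:**
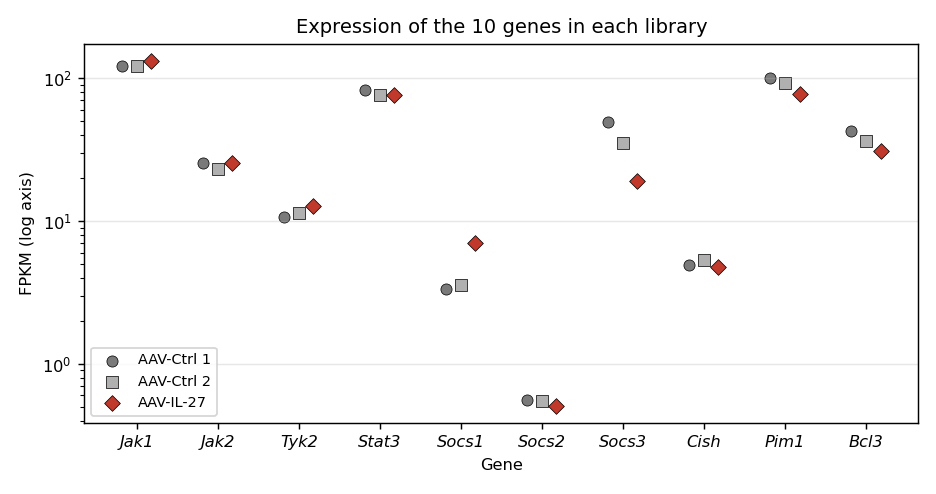
Level of each of the 10 genes in FPKM (log axis) in AAV-Ctrl 1 (circles), AAV-Ctrl 2 (squares) and AAV-IL-27 (diamonds), 1 point per library. Socs1 is higher in AAV-IL-27 (6.97 against 3.35 and 3.55 FPKM) and Socs3 is lower (19.14 against 49.23 and 35.52 FPKM), and the kinases and Stat3 are at similar levels in all 3 libraries.

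The SOCS genes did not move as a group. Socs1 (NCBI Gene 12703, chromosome 16 from 10782240 to 10785536, minus strand) codes for an inhibitor that blocks the catalytic site of the kinases and is known as a brake on interferon signalling. It was at 3.35 and 3.55 FPKM in AAV-Ctrl (3.45 ± 0.141, SD, n = 2) and at 6.97 FPKM in AAV-IL-27. AAV-IL-27 stood apart from both AAV-Ctrl libraries, which were close to each other.

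The log2 difference of Socs1 was 0.84, against 0.065 between the AAV-Ctrl libraries. Among 2925 genes whose AAV-Ctrl mean was within 2-fold of that of Socs1, the gap between AAV-Ctrl 1 and AAV-Ctrl 2 had a 95th percentile of 0.385. A log2 difference as high was seen in 61 of the 9130 genes that averaged 1 FPKM or more. The table holds no counts. With depth estimated from the steps between low values, and with the GENCODE transcript length of 2785 nt, Socs1 corresponded to about 175 and 188 fragments in AAV-Ctrl against 362 in AAV-IL-27. Exact Poisson intervals at the 95% level, which cover counting error only, ran from 150.0 to 203, from 162 to 217 and from 326 to 401. The transcript length used by the authors was not given in the sources used here, and the intervals would stay apart for any length from 480 nt upwards.

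Socs3 (NCBI Gene 12702, chromosome 11 from 117966079 to 117970047, minus strand) codes for the inhibitor that binds the Il6st chain and the G-CSF receptor and so limits Stat3. It was at 49.23 and 35.52 FPKM in AAV-Ctrl (42.4 ± 9.69, SD, n = 2) and at 19.14 FPKM in AAV-IL-27. AAV-IL-27 was below both, and the AAV-Ctrl libraries themselves were unequal.

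The log2 difference of Socs3 was -1.09. It was -1.32 against AAV-Ctrl 1 and -0.86 against AAV-Ctrl 2, while AAV-Ctrl 2 lay 0.460 below AAV-Ctrl 1. That gap between AAV-Ctrl libraries was itself wide, since among 1880 genes of similar level the 95th percentile of its size was 0.241. A log2 difference as low was seen in 209 of the 9130 genes (2.29%). The direction held against either AAV-Ctrl library, but the size of the difference rested in part on AAV-Ctrl 1.

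The other inhibitors, Cish and Socs2, were at 92.7% and 91.9% of the AAV-Ctrl mean. Cish (NCBI Gene 12700, chromosome 9 from 107296026 to 107302784, plus strand), whose product covers the STAT5 docking sites of receptors, was at 4.92 and 5.35 FPKM in AAV-Ctrl and 4.76 FPKM in AAV-IL-27. Its log2 difference of -0.09 was smaller than the 0.101 between the AAV-Ctrl libraries. Socs2 (NCBI Gene 216233, chromosome 10 from 95385362 to 95417180, minus strand), known for limiting growth hormone signalling, was at 0.56 and 0.55 FPKM in AAV-Ctrl and 0.51 FPKM in AAV-IL-27. These values correspond to about 9 fragments in each library on the shortest transcript, with an interval from 4.12 to 17.1, so a difference in Socs2 was not detectable at this depth. The overlap of Cish with Gm17040 and Gm17041 on the other strand carries the same limit as for Stat3.

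**Figure D2:**
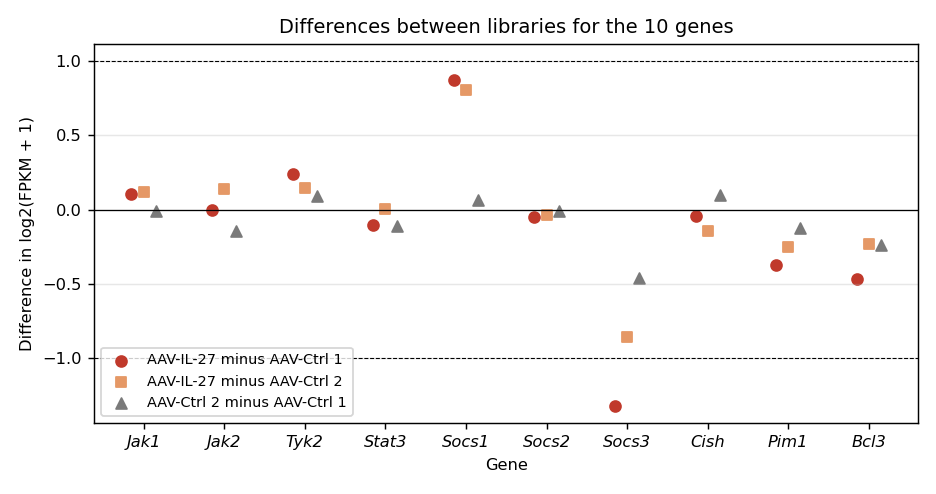
Differences in log2(FPKM + 1) between libraries for the 10 genes: AAV-IL-27 minus AAV-Ctrl 1 (circles), AAV-IL-27 minus AAV-Ctrl 2 (squares) and AAV-Ctrl 2 minus AAV-Ctrl 1 (triangles), with dashed lines at 1 log2 unit in either direction. Socs1 sits at 0.87 and 0.81 with AAV-Ctrl libraries that differ by 0.065, and Socs3 sits at -1.32 and -0.86 with AAV-Ctrl libraries that differ by -0.46.

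Since Socs1 and Socs3 went in opposite directions, the ratio of their levels within a library was examined as well. Socs3 was at 14.7 and 10.01 times the level of Socs1 in the AAV-Ctrl libraries and at 2.75 times in AAV-IL-27. Any factor that scales a whole library cancels in such a ratio. Against Stat3, whose level was similar in all 3 libraries, the ratio of Socs3 was 0.596 and 0.464 in AAV-Ctrl against 0.249 in AAV-IL-27, and the ratio of Socs1 was 0.0405, 0.0464 and 0.0907. Against Cish, the ratio of Socs1 was 0.681 and 0.664 in AAV-Ctrl against 1.46 in AAV-IL-27. The pairs were chosen with the differences of Socs1 and Socs3 known, so the ratios restate those differences on another scale.

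**Figure D3:**
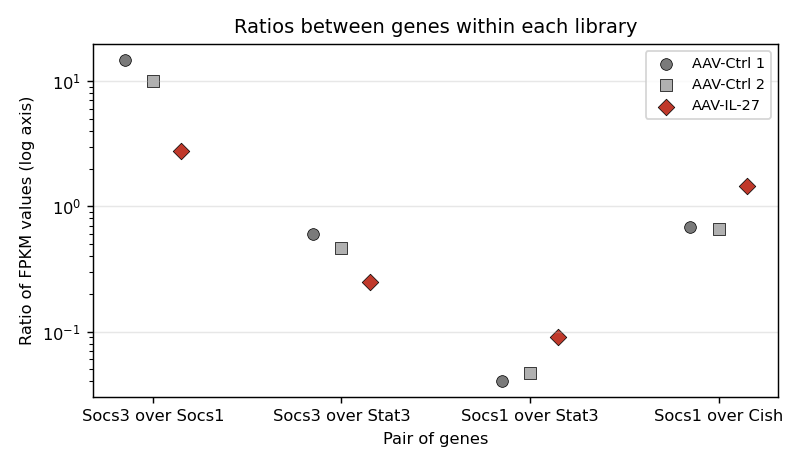
Ratios of the FPKM values of pairs of genes within each library (log axis), with AAV-Ctrl 1 as circles, AAV-Ctrl 2 as squares and AAV-IL-27 as diamonds. The ratio of Socs3 to Socs1 is 14.7 and 10.01 in AAV-Ctrl against 2.75 in AAV-IL-27, and that of Socs1 to Cish is 0.681 and 0.664 against 1.46.

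The inducible genes Pim1 and Bcl3 were somewhat lower. Pim1 (NCBI Gene 18712, chromosome 17 from 29490753 to 29496112, plus strand), a serine/threonine kinase that promotes survival and is switched on by STAT3 and STAT5, was at 100.49 and 92.32 FPKM in AAV-Ctrl (96.4 ± 5.78, SD, n = 2) and 77.45 FPKM in AAV-IL-27. Bcl3 (NCBI Gene 12051, chromosome 7 from 19808462 to 19822770, minus strand), a nuclear member of the IκB family that binds NF-κB subunits, was at 42.82 and 36.21 FPKM in AAV-Ctrl (39.5 ± 4.67, SD, n = 2) and 30.74 FPKM in AAV-IL-27. Both were below both AAV-Ctrl libraries. The log2 difference of Pim1 was -0.31 to the AAV-Ctrl mean and -0.25 to AAV-Ctrl 2, the nearer library, both larger in size than the 0.121 between the AAV-Ctrl libraries. That of Bcl3 was -0.35 to the mean and -0.23 to AAV-Ctrl 2, and with 0.236 between its AAV-Ctrl libraries only the first was larger in size. Among genes of similar level the gap had a 95th percentile of 0.223 for Pim1 and 0.238 for Bcl3. Both differences of Pim1 exceeded it in size, the nearer one narrowly, and for Bcl3 only the difference to the mean did. Among all tested genes, 1344 had a log2 difference as low as that of Pim1 and 1197 as low as that of Bcl3. Pim1 overlaps Gm26885 and Bcl3 overlaps Gm16174 and Gm16175 on the other strand.

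In the order of levels (FPKM, which is per length) in AAV-Ctrl, Jak1 came first with a mean of 122 FPKM, followed by Pim1 at 96.4, Stat3 at 79.6, Socs3 at 42.4, Bcl3 at 39.5, Jak2 at 24.5, Tyk2 at 11.04, Cish at 5.14, Socs1 at 3.45 and Socs2 at 0.555 FPKM. Socs3 and Bcl3 could not be ordered, because their AAV-Ctrl values overlapped, and no other neighbours overlapped. In AAV-IL-27 the order differed in 2 places. Socs3 stood below Bcl3 and also below Jak2, and Socs1 stood above Cish.

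Counts over the group were set against the same counts over all genes. Of the 10 genes, 9 averaged 1 FPKM or more and were counted with the 9130 such genes, and Socs2 was below. None of the 9 was at least 1 log2 unit higher than both AAV-Ctrl libraries, against 0.307% of all genes, and 0 were lower by as much, against 2.32%. At 0.5 log2 units, 1 of 9 was higher (Socs1), against 1.57%, and 1 of 9 was lower (Socs3), against 7.01%. By any amount, 3 of 9 were above both AAV-Ctrl libraries (Jak1, Tyk2 and Socs1), against 38.9% of all genes, and 4 of 9 were below both (Socs3, Cish, Pim1 and Bcl3), against 41.9%. With either of 2 rescalings of the libraries, Jak2 also lay above both and Cish no longer lay below both. The median log2 difference was -0.049 over the 9 genes and -0.0054 over all 9130. The shares above and below both were close to those of all genes.

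**Figure D4:**
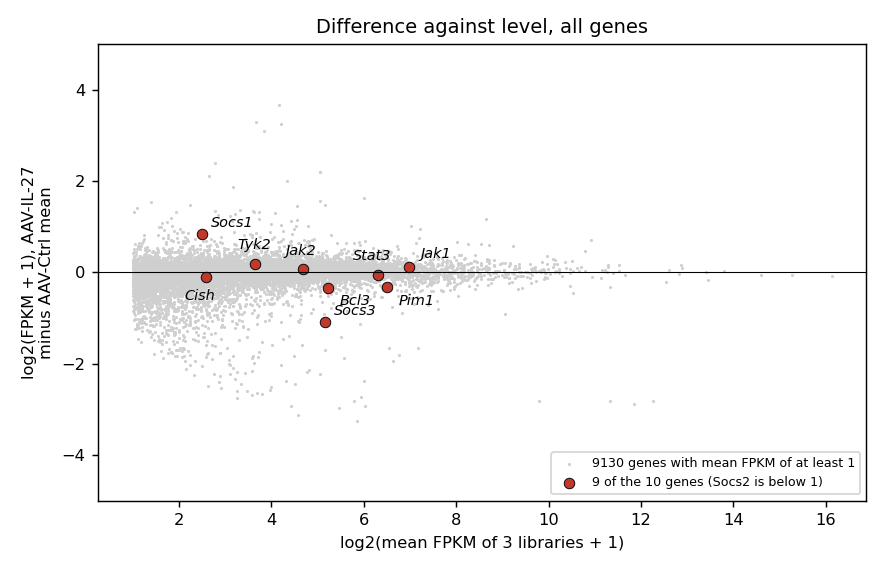
Log2 difference between AAV-IL-27 and the AAV-Ctrl mean (vertical axis) against the mean level over the 3 libraries (horizontal axis, log2 scale), with 9130 genes in grey and 9 of the 10 genes in red. Socs1 (0.84) and Socs3 (-1.09) lie at the edges of the grey cloud and the other 7 lie within it.

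The rest of the pathway was read from lists of 57 genes, of which 53 averaged 1 FPKM or more. Of these, 0 were higher by 1 log2 unit than both AAV-Ctrl libraries and 1 was lower, against 0.307% and 2.32% of all tested genes. At 0.5 log2 units 0 were higher and 4 were lower, against 1.57% and 7.01%. The lower counts were thus near the shares of all tested genes. By any amount, 29 of the 53 (54.7%) were above both AAV-Ctrl libraries, against 38.9% of all tested genes, and 15 (28.3%) were below, against 41.9%. The median log2 difference was 0.075, against -0.0054 over all genes. With median-ratio rescaling the shares above both were 62.3% of the pathway genes and 49.9% of all genes, so the level of either share depends on the scaling. Of 6 other STAT and JAK genes listed, 5 were above both. Stat6, which serves IL-4, was at 112.48 and 114.28 FPKM in AAV-Ctrl and 128.44 FPKM in AAV-IL-27. Stat5b, which serves growth hormone and haematopoietic cytokines, was at 56.08 and 52.53 FPKM in AAV-Ctrl against 57.51 FPKM in AAV-IL-27. The exception was Jak3, the kinase of the common gamma chain of lymphocyte cytokines, named here after its values were seen, at 9.71 and 7.99 FPKM in AAV-Ctrl and 4.78 FPKM under AAV-IL-27.

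The remaining SOCS and PIM genes were low, and of 5 tested, 2 were above and 3 below both AAV-Ctrl libraries. Socs4 was at 4.31, 4.59 and 4.16 FPKM and Socs6 at 1.98, 1.89 and 1.65 FPKM (AAV-Ctrl 1, then 2, then AAV-IL-27, as in all triplets from here on). Of the genes for the ubiquitin ligase that the SOCS box recruits, Elob had a log2 difference of -0.04 and Eloc of -0.07. The 4 genes of that list ranged from -0.066 to 0.078. The phosphatases and other inhibitors ranged from -0.15 to 0.34 over 10 genes, with 6 above and 2 below both. Ptpn6, a phosphatase of blood cells that switches off JAK signalling, was at 389.44, 395.14 and 473.89 FPKM, and Ptprc (CD45) at 401.01, 370.61 and 346.54 FPKM.

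Of 13 tested receptor chains, 8 were above and 4 below both AAV-Ctrl libraries. Csf3r, the G-CSF receptor, was at 1158.92, 1055.09 and 1251.24 FPKM, and Csf2ra, a chain of the GM-CSF receptor, at 381.28, 384.56 and 457.90 FPKM. Epor, the erythropoietin receptor, was the only tested gene of the pathway lists lower by 1 log2 unit, at 3.34, 3.91 and 0.83 FPKM. The IL-27 receptor chains, named after their values were seen, were both under 1 FPKM, with Il27ra at 0.14, 0.26 and 0.04 FPKM and Il6st at 0.82, 0.80 and 0.43 FPKM.

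Genes known as STAT targets and the genes of related factors went different ways. Of 7 STAT3 targets, 3 were above and 2 below both AAV-Ctrl libraries, and the median log2 difference was -0.03. Their most abundant members were Junb, an AP-1 factor, at 516.47, 419.22 and 434.30 FPKM, and Mcl1, a survival factor of neutrophils, at 304.31, 255.60 and 273.06 FPKM, so that AAV-IL-27 fell within the AAV-Ctrl range for both. Of 4 STAT5 targets, 2 were below both. Osm, which encodes the cytokine oncostatin M, was at 90.61, 92.47 and 62.34 FPKM, and Bcl2l1, which encodes the survival factor BCL-XL, at 27.44, 24.93 and 17.84 FPKM. Of 3 interferon regulatory factors, Irf1, a transcription factor of the interferon response, was at 84.16, 86.04 and 103.53 FPKM and Irf9, a partner of STAT2, at 56.87, 62.21 and 63.61 FPKM. The third, Irf8, was at 7.49, 7.89 and 4.66 FPKM and was named after its values were seen. Of the NF-κB subunits that Bcl3 binds, Nfkb1 was at 40.73, 43.40 and 41.91 FPKM and Nfkb2 at 14.06, 13.32 and 18.94 FPKM.

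**Figure D5:**
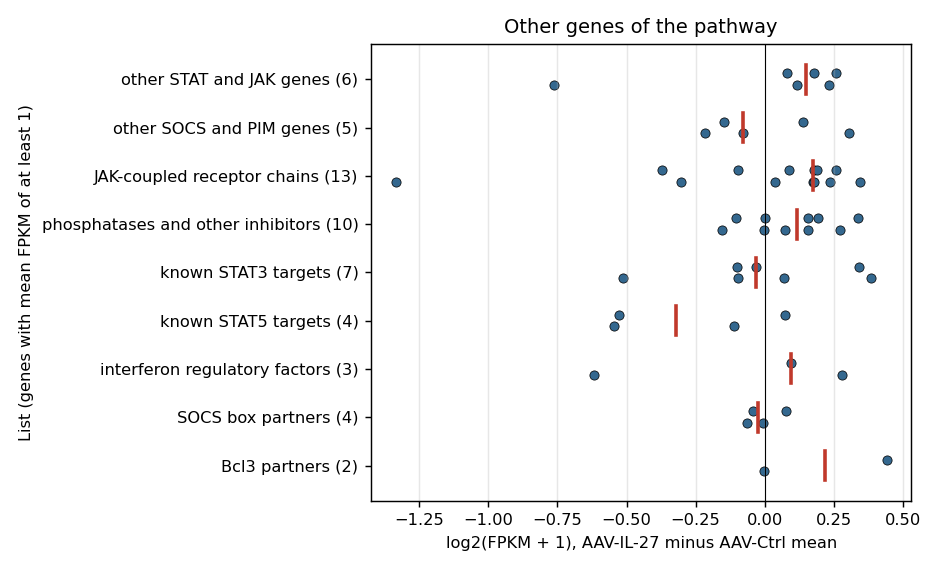
Log2 difference between AAV-IL-27 and the AAV-Ctrl mean for the tested genes of each pathway list (points, with the number of genes in parentheses) and the median of the list (red bar). The lowest points are Epor at -1.33, Jak3 at -0.76 and Irf8 at -0.62, and the highest is Nfkb2 at 0.44.

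The libraries were alike in depth, at an estimated 19120000 to 19480000 fragments, and neutrophil markers were high in all 3. The sum of 10 neutrophil genes in AAV-IL-27 was 95.4% of the AAV-Ctrl mean, with 2 genes above and 6 below both AAV-Ctrl libraries. S100a9, S100a8 and Ngp made up most of that sum in each library. Ly6g, at 711.76, 766.11 and 586.29 FPKM, was the lowest of the 10 relative to AAV-Ctrl, at 79.3%. Markers of 5 other cell types were lower in AAV-IL-27 as sums, while the sums for monocytes and for T and NK cells differed by less than 3%. The summed level of 10 erythroid genes, most of it from globin genes, was 20416.5, 13763.7 and 2343.6 FPKM. All 10 were lower by 1 log2 unit than both AAV-Ctrl libraries, against 2.32% of all tested genes. So were 9 of 10 macrophage genes, and the sum of the 10 was 807.65, 798.2 and 229.46 FPKM. The macrophage gene that was not lower by as much was Adgre1, at 83.2% of the AAV-Ctrl mean. The sums of 6 B cell, 6 megakaryocyte and 6 stroma genes in AAV-IL-27 were 13.9%, 17.1% and 27.7% of the AAV-Ctrl mean. Cxcl12, at 6.58, 7.15 and 1.18 FPKM, made up most of the stroma sum in AAV-Ctrl (11.3 and 13.8 FPKM). Of the other stroma genes, Col1a1 in AAV-IL-27 lay within the AAV-Ctrl range, and Adipoq, at 0.81, 1.02 and 0 FPKM, averaged under 1 FPKM. The sums of 6 monocyte and 6 T and NK cell genes were 97.9% and 99.9%. Csf1r, at 75.39 of 93.67 FPKM in AAV-IL-27, made up most of the monocyte sum, and the other genes went apart, with Ccr2, F13a1 and Ms4a6c at 174%, 156% and 152% of the AAV-Ctrl mean and Ly86 at 49.7%. Of the T and NK cell genes only 2 of 6 averaged 1 FPKM or more. Socs3, Pim1 and Bcl3 were highest in AAV-Ctrl 1 and lowest in AAV-IL-27. The erythroid, macrophage and neutrophil sums and the FPKM total of the whole library had that order too. Not all single genes of these lists had it, and Klf1, C1qa and Ly6g, for example, were highest in AAV-Ctrl 2. The sums of the other marker lists were highest in AAV-Ctrl 2. An order of 3 values is no usable measure of likeness between genes and lists. The part of cells other than neutrophils in the values of Socs1, Socs3, Pim1, Bcl3, Epor and Jak3 was not tested.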

How the data were processed

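RNA-seq values of 3 libraries were used, 2 AAV-Ctrl and 1 AAV-IL-27. The authors enriched mRNA with oligo-dT, made strand-marked libraries and deposited FPKM values with 2 decimals. The build is mm10 per the labels. The aligner and counter are not given in the sources used here. Of 16073 rows, 1 without a symbol was left out. A further column of per-sample values (1 in all), headed as an AAV-IL-27 library, fits none of the listed samples and was not analysed here. Groups came from the sample titles.

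Differences were taken as log2(FPKM + 1), with a pseudocount of 1, and counts were made over genes that averaged 1 FPKM or more in the 3 libraries. The study's methods likewise read very small samples descriptively. Named genes were the 10 genes, the 2 most abundant genes of each pathway list and list genes past 1 log2 unit. The members, lists and rules were chosen with earlier results of these data known. Gene positions and lengths came from GENCODE M21 (GRCm38). List genes were matched by symbol or NCBI Gene number, 2 of 57 by number only, and 1 further gene is not reported here. Depth was fitted over 10910 genes with a single transcript, with 70 nt taken off each length. It used 323, 304 and 300 low values, of which 70.3%, 75.0% and 69.7% lay within 0.15 of a whole fragment, so the fragment numbers are rough and a count test was not used. The steps were tested on simulated data. For the depth fit, the simulation used the same lengths and the same 70 nt as the fit, so errors in those lengths were not covered. Scripts ran in Python 3.11.15 with scipy 1.17.1, pandas 2.3.3, matplotlib 3.10.9 and numpy 2.4.6. Rescaled counts of pathway genes were added after seeing the data. Other pseudocounts, filters, thresholds and rescalings were tried, and AAV-Ctrl 1 and AAV-Ctrl 2 were each left out in turn.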

Additional observations from a re-analysis of the deposited data

How the results depend on the processing

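Over 6 alternatives for each of the 10 genes, 8 genes kept the sign of their log2 difference, with Socs1 between 0.81 and 1.01 and Socs3 between -1.32 and -0.86. Jak2 turned to -0.0027 without AAV-Ctrl 2, and Stat3 to 0.0098 with median-ratio rescaling and 0.0058 without AAV-Ctrl 1. With either rescaling (the all-gene median shifted by 0.037 and 0.053), Jak2 lay above both AAV-Ctrl libraries and Cish no longer lay below both. With equal totals and median ratios the log2 difference of Pim1 shrank in size to -0.27 and -0.25, and that of Bcl3 to -0.31 and -0.29. The narrow excess of Pim1 over the gaps of genes of similar level was read without rescaling. At a threshold of 0.5, 1 of the genes was higher and 1 lower (0 and 0 at 1). Without AAV-Ctrl 2, Socs3 passed 1 log2 unit, and leaving out either AAV-Ctrl library gave 0 to 1 lower genes. The median over the genes was -0.0080 with equal totals, 0.0098 with median ratios and from -0.040 to 0.0058 without either AAV-Ctrl library.

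Over all genes, 28 were higher and 212 lower. The counts were 46 higher with a pseudocount of 0.01, 396 and 425 lower with 0.1 and 0.01, 143 and 640 at a threshold of 0.5, 5 and 39 at 2, 93 lower at a mean FPKM of at least 5, and from 40 to 49 higher and 243 to 294 lower without either AAV-Ctrl library. Looser settings gave more genes and stricter ones fewer, by construction. Leaving out the AAV-IL-27 library was not possible. No paired analysis was possible because AAV-IL-27 had 1 library.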
